A study of Homo sapiens with 18 samples.

Results

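The genes described here are the olfactory receptor genes that lie outside chromosome 11, taken as the protein-coding genes of the human autosomes other than chromosome 11 whose symbols are written as OR, a number, letters and a number. The rule found 227 genes on 16 chromosomes, out of 17912 protein-coding genes on those autosomes and 19229 on all 22 autosomes. It used names and positions only, and 10 protein-coding genes with a related but differently built OR name were left out of both the members and the genes they were compared with. Another 171 olfactory receptor genes, on chromosome 11, were used only for comparison.

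The study followed linker histones H1.2 and H1.5 in HL-60/S4, an established human myeloid leukemia line, in the undifferentiated state and by 2 protocols. In xChIP-seq the antibody met chromatin that had been fixed and already sheared by sonication, whereas in xxChIP-seq it was bound inside fixed, permeabilized cells that were fixed again and only then sonicated. Each isotype was mapped by each protocol in 3 replicates, giving 12 immunoprecipitated samples, and 6 Input samples that were not used here. The processed files used here are 1 merged peak list for each of the 4 combinations, with positions but no score or read number. Depth is thus unknown from them, no spread between replicates could be computed, and every difference below is a description without a test. The lists hold between 138491 and 143193 peaks and cover between 16.7% (xChIP H1.5) and 27.1% (xChIP H1.2) of the analysed chromosomes. Where 4 values follow each other below, they are in list order, that is H1.2 then H1.5 by xChIP and H1.2 then H1.5 by xxChIP.

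Olfactory receptors are G protein-coupled receptors that bind odorants on the cilia of olfactory sensory neurons. Their genes form one of the largest gene families of the human genome and sit in tandem arrays, usually with the whole receptor encoded by 1 uninterrupted exon. Each sensory neuron expresses a single allele of a single receptor gene, while the rest of the family is kept silent there in compacted heterochromatin, and most other cell types, blood cells among them, express few or none. Linker histones bind the nucleosome and the DNA that enters and leaves it, and are associated with compact chromatin.

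The sequences that follow are the 250 bases upstream of the annotated transcription start site (TSS) of 5 members, read from the GRCh37 (hg19) reference and written 5′ to 3′ on the gene's strand. The first 3 show genes whose TSS windows had opposite peaks in the 2 protocols. OR6N1 and OR2C3 were among 5 members (with OR6N2, OR2M4 and OR2T6) whose TSS window was covered to 100% in both xxChIP lists and held no xChIP peak, and OR2AP1 was the 1 member with the reverse pattern. In OR6N1 this held for the TSS window alone, as xChIP H1.2 and H1.5 covered 9.28% and 50.4% of its gene body. The share of other genes with either pattern of full coverage was not computed, so the counts of 5 and 1 have no reference. Capitals mark CG pairs, of which the first 2 sequences hold none and the third holds 1.
OR6N1 (chr1:158741986-158742235, minus strand): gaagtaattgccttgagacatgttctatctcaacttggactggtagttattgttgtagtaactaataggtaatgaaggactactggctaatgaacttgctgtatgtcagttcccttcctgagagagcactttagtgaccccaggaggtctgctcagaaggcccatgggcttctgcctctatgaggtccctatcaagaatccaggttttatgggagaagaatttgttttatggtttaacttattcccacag
OR2C3 (chr1:247699743-247699992, minus strand): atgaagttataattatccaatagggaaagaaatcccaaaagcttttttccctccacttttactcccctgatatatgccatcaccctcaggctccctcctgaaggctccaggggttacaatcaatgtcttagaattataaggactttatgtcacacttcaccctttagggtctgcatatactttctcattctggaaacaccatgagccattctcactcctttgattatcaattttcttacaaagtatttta
OR2AP1 (chr12:55966002-55966251, plus strand): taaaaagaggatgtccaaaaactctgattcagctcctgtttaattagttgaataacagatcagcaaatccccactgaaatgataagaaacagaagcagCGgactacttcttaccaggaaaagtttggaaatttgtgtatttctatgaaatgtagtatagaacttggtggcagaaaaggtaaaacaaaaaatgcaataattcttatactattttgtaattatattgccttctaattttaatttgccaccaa
The last 2 are OR2T3 and OR2T34, near-identical copies about which uniquely mapped reads can say little. Here capitals mark the bases that differ or have no partner, and 242 of the 248 aligned bases were the same.
OR2T3 (chr1:248636402-248636651, plus strand): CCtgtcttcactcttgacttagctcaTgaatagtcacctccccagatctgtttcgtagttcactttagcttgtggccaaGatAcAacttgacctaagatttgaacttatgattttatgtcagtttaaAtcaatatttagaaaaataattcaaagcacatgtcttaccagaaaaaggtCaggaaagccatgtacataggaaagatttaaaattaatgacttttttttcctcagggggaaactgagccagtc
OR2T34 (chr1:248738059-248738308, minus strand): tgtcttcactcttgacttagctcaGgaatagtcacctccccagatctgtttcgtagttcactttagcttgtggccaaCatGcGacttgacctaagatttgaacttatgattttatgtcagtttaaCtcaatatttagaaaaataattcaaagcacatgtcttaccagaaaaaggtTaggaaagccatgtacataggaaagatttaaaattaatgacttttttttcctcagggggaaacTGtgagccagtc

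The first question was how often linker histone peaks lay at the starts of these genes. The TSS window (1000 bp on either side of the annotated start) shared at least 1 bp with a peak in 46 of 227 members for xChIP H1.2 (20.3%, 95% Wilson interval 15.6 to 26.0%), against 49.7% of all protein-coding genes on the same chromosomes. For xChIP H1.5 it was 56 members (24.7%, 19.5 to 30.7%), against 22.2% of all genes. By xxChIP it was 66 members for H1.2 (29.1%, 23.6 to 35.3%), against 8.74%, and for H1.5 it was 74 members (32.6%, 26.8 to 38.9%), against 7.99%. The members were therefore below the share over all genes in xChIP H1.2, near it in xChIP H1.5 and above it in both xxChIP lists. The intervals cover counting error only, and neighbouring members can share a peak, so they are too narrow for a family that lies in arrays.

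Since peak coverage varies with base composition, the members were next set beside other genes of similar local GC, weighted to the GC content of the members in 100 kb around the TSS (median 38.3%, range 34.7 to 50.2%). On average, peaks of the xChIP H1.2 list covered 13.0% of the members' TSS windows and 19.7% of those of GC-similar genes. This difference of -6.69 percentage points was -1.54 when GC was taken in 10 kb and -16.4 in 1 Mb. For xChIP H1.5 the means were 12.5% and 9.67%, a difference of 2.86 percentage points that changed sign under other comparisons. The xxChIP lists gave 18.8% and 7.66% with H1.2, a ratio of 2.46, and 21.7% and 6.25% with H1.5, a ratio of 3.48. With GC in 10 kb the H1.2 difference of 11.2 percentage points was 6.52. Coverage was uneven among members: the median was 0 in each list, and between 9 and 29 windows per list were covered in full.

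The members' own TSS windows were poorer in GC than those of GC-similar genes (median 39.5% against 50.3%). They were also poor in CG pairs, with a median observed to expected ratio of 0.192 against 0.623, and 2 of 227 members reached 0.6 against 53.9% of all other genes. When other genes were instead weighted to the GC of the TSS window itself, their mean coverage was 19.4%, 13.2%, 11.5% and 9.82% in list order. The members' excess in xxChIP was then 7.36 percentage points with H1.2 and 11.9 with H1.5, while the difference in the xChIP H1.5 list was -0.72. The reference also mattered: 2-kb tiles of all sequence on these chromosomes, at similar local GC, were covered to 22.1%, 16.5%, 22.8% and 19.2% in list order. Against those tiles the members differed by -9.11, -3.99, -4.01 and 2.56 percentage points, and so were lower in every list but xxChIP H1.5. In the xxChIP lists the mean over all members thus stood well above that of other gene starts, but within 5 percentage points of ordinary sequence of the same GC.

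**Figure D1:**
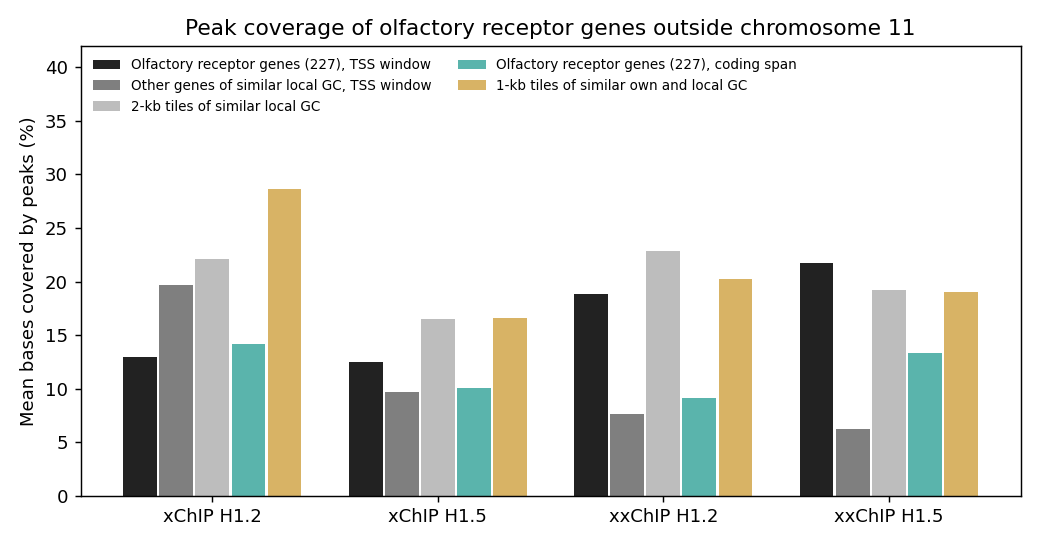
Mean percent of bases covered by peaks (y axis) in each of the 4 lists (x axis) for the TSS windows of the 227 olfactory receptor genes, GC-similar genes and 2-kb tiles, and for the members' coding spans beside 1-kb tiles. For xxChIP H1.5, the TSS windows of the members stand at 21.7% and those of GC-similar genes at 6.25%, and no error bars are drawn because the lists merge the replicates.

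Coverage around the TSS was next set beside that of GC-similar genes, whose TSS windows are richer in GC. Within 500 bp of the TSS of GC-similar genes, xxChIP H1.2 covered 7.26% and xxChIP H1.5 covered 5.88%, against 19.3% and 14.8% at 4 to 5 kb on either side. The members also dipped, but from a higher level: 18.1% at the centre and 32.1% in the flanks with H1.2, and 20.7% and 29.2% with H1.5. Centre to flank ratios for the members were 0.564 and 0.710 in these lists, against 0.375 and 0.396 for GC-similar genes. In xChIP H1.2 the members' ratio was 0.644 (12.7% over 19.8%) and that of GC-similar genes was 0.827 (19.4% over 23.5%). In xChIP H1.5 the ratios were 0.533 and 0.591.

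**Figure D2:**
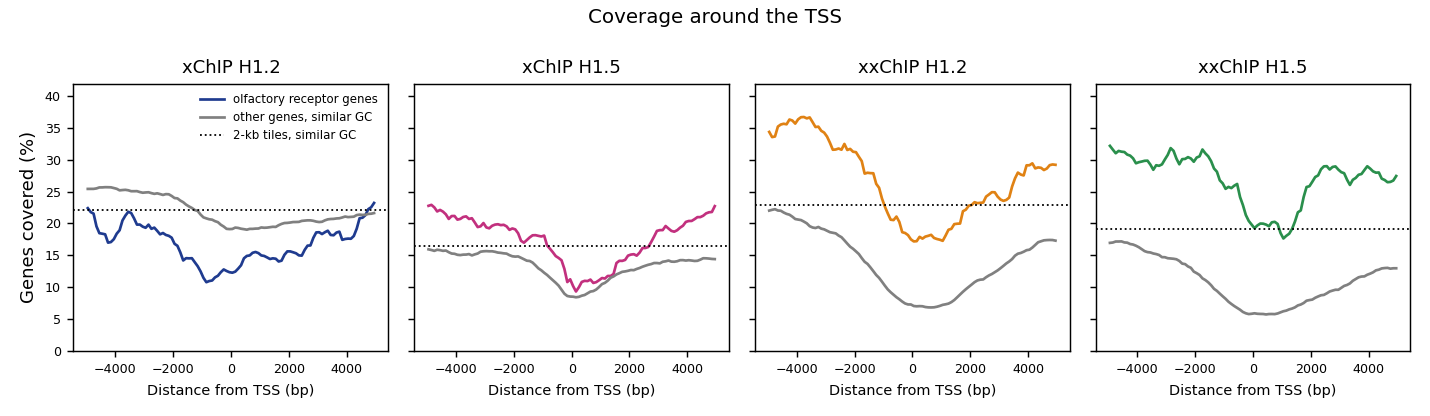
Percent of genes covered by a peak (y axis) at each distance from the TSS in bp (x axis) for the 227 olfactory receptor genes (coloured), GC-similar genes (grey) and, as a dotted line, the mean of 2-kb tiles of similar GC. In both xxChIP panels the members stay above the other genes over the whole 10 kb, with 18.1% and 20.7% at the centre.

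The annotated start of many members is simply the first coding base: 84 members had no annotated sequence upstream of it, and 99 had fewer than 100 bp. Among the other 128 members, TSS windows overlapped a peak in 24.2%, 26.6%, 32.8% and 35.2% of genes in list order. All 4 shares were somewhat higher than over all 227 members. These 128 members also dipped at the TSS in xxChIP. Coverage within 500 bp and at 4 to 5 kb was 21.6% and 31.7% with H1.2, and 21.9% and 30.3% with H1.5.

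The receptor coding sequence was lower in peaks than the DNA 5 kb upstream and 4.5 kb downstream of its first base. The span from the first to the last coding base had a median length of 942 bp and a median GC of 47.4%, well above the surroundings. It was covered to a mean of 14.1%, 10.0%, 9.15% and 13.3% in list order. A peak lay there in 39, 35, 26 and 37 members (17.2%, 15.4%, 11.5% and 16.3%), and this share was not computed for other genes. For xxChIP H1.2, 32.9% of members were covered 5 kb upstream of the first coding base, 9.25% at 500 bp into the coding sequence and 34.1% at 4.5 kb downstream. The same 3 values were 30.4%, 12.8% and 33.6% in the xxChIP H1.5 list. By xChIP they were 18.2%, 13.9% and 26.4% with H1.2 and 19.9%, 9.25% and 22.2% with H1.5.

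Tiles of 1 kb matched on both their own GC and the local GC were covered to 28.6%, 16.6%, 20.3% and 19.0%, so the coding spans differed from them by -14.5, -6.61, -11.1 and -5.74 percentage points. In the 150 members whose coding span held at least 90% unique 50-base words, the means were 14.9%, 10.9%, 7.09% and 12.8%, and in the other 77 members they were 12.6%, 8.32%, 13.2% and 14.1%. The largest gap was in xxChIP H1.2, where 13 members of each set held a peak (8.67% and 16.9%), and the part of repeated sequence in these values was not tested. The order of the 2 xxChIP lists, with H1.5 above H1.2 over the coding span, was the same in these members.

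**Figure D3:**
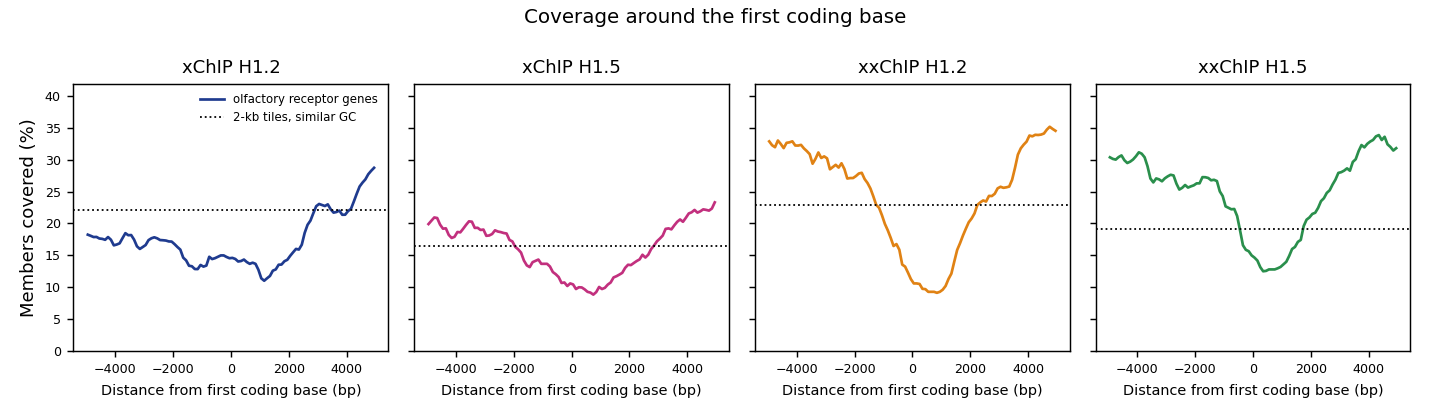
Percent of the 227 members covered by a peak (y axis) by distance in bp from the first coding base (x axis), with the mean of 2-kb tiles of similar GC as a dotted line. In the xxChIP H1.2 panel coverage goes from 32.9% at 5 kb upstream to 9.25% inside the coding sequence and back to 34.1%.

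Over whole gene bodies, which have a median length of 3978 bp, 75 members held an xChIP peak of H1.2, against 84.6% of all genes, and 79 one of H1.5, against 71.9%. By xxChIP the counts were 90 for H1.2, against 62.2%, and 94 for H1.5, against 59.3%. These shares of 33.0%, 34.8%, 39.6% and 41.4% cannot be read against those of all genes, because GC-similar genes had a median length of 52747 bp and a longer gene meets a peak more often. The mean percent of the gene covered is not tied to length in this way. It was 14.6%, 12.4%, 16.1% and 19.6% for members in list order, and 20.6%, 14.4%, 17.5% and 13.3% for GC-similar genes. The difference was thus above 0 in xxChIP H1.5 alone, by 6.23 percentage points.

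The members overlapped by each protocol and isotype were then set side by side, with the share of GC-similar genes beside each count of members that held a peak. Single-list shares depended on this reference. In list order they were 20.3%, 24.7%, 29.1% and 32.6% for members and 28.9%, 19.1%, 13.2% and 11.5% for GC-similar genes. They were 29.0%, 22.7%, 19.7% and 17.1% for genes of similar TSS-window GC, and 31.4%, 26.0%, 33.4% and 29.4% for 2-kb tiles. Joint counts were set beside GC-similar genes alone. A peak of any xChIP list and of any xxChIP list met at the TSS window of 42 members (18.5%, against 7.03% of GC-similar genes), 43 held xChIP peaks only (18.9%, against 32.7%), 60 held xxChIP peaks only (26.4%, against 12.4%) and 82 held none. For H1.2, 35 members were overlapped in xChIP only (15.4%, against 25.7%), 55 in xxChIP only (24.2%, against 10.0%) and 11 in both (4.85%, against 3.23%), so the shared members were 11 of the 46 marked by xChIP and of the 66 marked by xxChIP. For H1.5, 34 were overlapped in xChIP only (15.0%, against 16.9%), 52 in xxChIP only (22.9%, against 9.27%) and 22 in both (9.69%, against 2.22%). Within xxChIP, 38 members were shared between the isotypes (16.7%, against 5.29%), with 28 in H1.2 only (12.3%, against 7.95%) and 36 in H1.5 only (15.9%, against 6.19%). Within xChIP, 17 were shared (7.49%, against 8.27%), with 29 in H1.2 only (12.8%, against 20.6%) and 39 in H1.5 only (17.2%, against 10.8%). Peaks of both xxChIP lists without any of xChIP were seen at 28 members (12.3%, against 3.17% of GC-similar genes), and peaks of both xChIP lists without any of xxChIP at 5 (2.20%, against 6.66%).

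All 4 lists met at a single TSS window, that of OR6V1 on chromosome 7, covered to 53.0%, 30.9%, 31.1% and 51.0% in list order. Over gene bodies all 4 lists met at 21 members, and the 10 with the highest mean coverage were OR7G2, OR1B1, OR4M2, OR2T12, OR1L8, OR5K1, OR4N2, OR2G6, OR4M1 and OR6Y1. OR7G2 was the highest of them, with 100%, 25.3%, 62.3% and 69.8% of the gene covered in list order. Several of these gene bodies are long for the family because of annotated upstream exons, up to 111239 bp in OR4N2.

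Gene bodies were covered to 100% in 13, 10, 13 and 19 members in list order, and the 5 named here per list were taken from these ties by coverage of the TSS window and then by genome order. Neighbours on chromosome 12 differed in which lists covered them. OR2AP1 was covered to 100%, gene and TSS window, by both xChIP lists and by neither xxChIP list. It lay inside an xChIP H1.2 peak of 54337 bp (chr12:55949304-56003640) and an xChIP H1.5 peak of 55990 bp (chr12:55949198-56005187), the longest peaks at any member in these lists. OR10A7, in the same array, was covered to 100% by xChIP H1.2, xChIP H1.5 and xxChIP H1.5, and by no xxChIP H1.2 peak. OR6C75 and OR6C68, between them, were fully covered by xChIP H1.2 and held no xxChIP peak, and xChIP H1.5 covered 27.8% of OR6C75 and none of OR6C68.

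OR4K15 and OR4K14 on chromosome 14 and OR1P1 on chromosome 17 were covered to 100% by xChIP H1.5 and by no other list. For xxChIP H1.2 the named members were OR1C1, OR2T4, OR2T3, OR5H2 and OR12D1, each at 100%, of which OR5H2 was also covered to 33.4% and OR1C1 to 15.5% by xxChIP H1.5. For xxChIP H1.5 they were OR14K1, OR2AJ1, OR2T34, OR14I1 and OR6B3, each at 100%, of which OR2AJ1 was also covered to 48.7% by xxChIP H1.2 and OR14I1 to 7.05% by xChIP H1.5. OR6B3, in a pair with OR6B2 on chromosome 2, also had 57.3% of its gene covered by xxChIP H1.2 and 42.1% by xChIP H1.2. OR2G2 was named for xChIP H1.2 as well, with its gene covered to 100% by that list and to 35.0% by xxChIP H1.5.

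Few human receptors have a well-known odorant, and 5 of those that do are given here, chosen after their values were known. OR7D4, the receptor for the steroid androstenone, had its TSS window covered by xxChIP to 95.8% for H1.2 and 93.4% for H1.5, with no xChIP peak there. OR2J3, which responds to a grassy leaf alcohol, had 26.1% and 19.1% covered in the same lists and likewise no xChIP peak. OR2W1, which is broadly tuned, was covered to 48.6% by xxChIP H1.2 alone. OR2M3, a receptor for an onion odorant, had a bare TSS window, and xxChIP H1.5 covered 73.5% of its gene. OR1A1, which responds to carvone, had a bare TSS window too, and xChIP H1.2 covered 14.0% of its gene.

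Members less than 500 kb from the next were joined into clusters, which gave 35 clusters, 10 of them a single gene. The 14 arrays of at least 5 members held 188 of the 227 genes. Mean TSS coverage exceeded that of GC-similar genes in 13 of these 14 arrays in the xxChIP H1.2 list and in 12 in the xxChIP H1.5 list, but in 8 and 2 arrays in the xChIP lists of H1.5 and H1.2. The starts of GC-similar genes are themselves low in xxChIP, and single arrays were not set beside 2-kb tiles of similar GC. Over all members the difference from those tiles was -4.01 percentage points in xxChIP H1.2 and 2.56 in xxChIP H1.5. xxChIP H1.2 exceeded xChIP H1.2 in 10 of 14 arrays, and xxChIP H1.5 exceeded xChIP H1.5 in 8. The isotypes kept no common order, with xxChIP H1.2 above xxChIP H1.5 in 5 arrays and xChIP H1.2 above xChIP H1.5 in 6.

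The coverage of each array as a whole, from its first to its last gene, was set beside that of the 500 kb on each side. The median over the 14 arrays was 29.8% inside and 16.1% outside with xxChIP of H1.2, and 31.9% and 15.1% with that of H1.5. The xChIP medians were 19.9% and 18.1% with H1.5, and 22.7% inside and 37.6% outside with H1.2. The inside exceeded the outside in 2, 9, 12 and 11 arrays in list order. The flanks were not matched on GC, and arrays are AT-rich, so the part of base composition in this contrast was not tested.

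**Figure D4:**
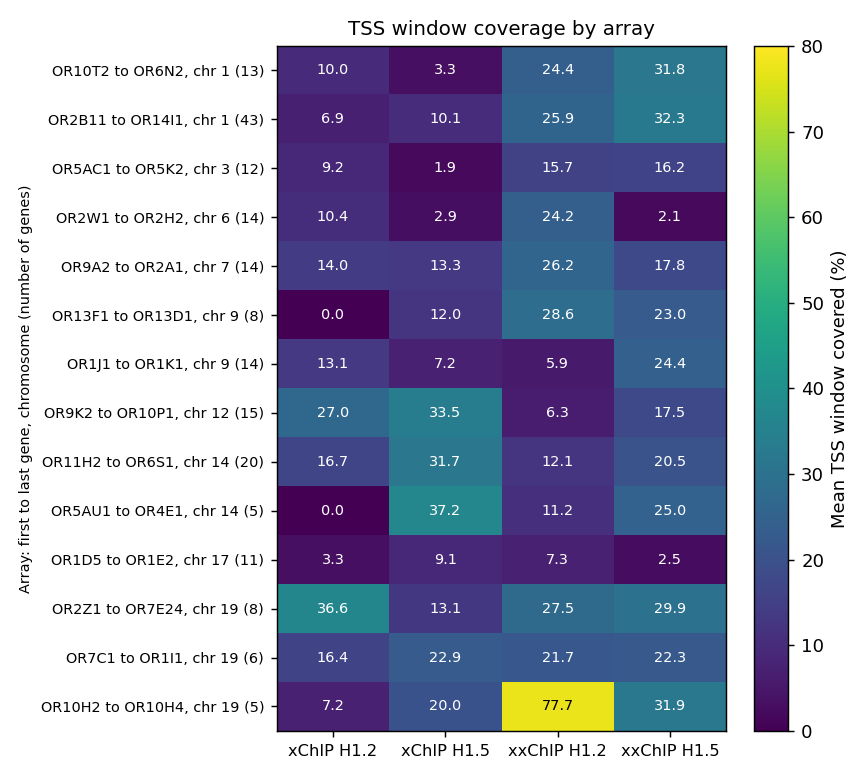
Mean percent of the TSS window covered (colour and printed value) in each of the 14 arrays of at least 5 genes (rows, with chromosome and number of genes) for the 4 lists (columns). The array from OR10H2 to OR10H4 is brightest, at 77.7% in xxChIP H1.2, while the arrays led by OR9K2 and OR11H2 are brighter in xChIP H1.5 than in xxChIP H1.2.

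The largest array, with 43 genes from OR2B11 to OR14I1 (chr1:247612420-248845629), was covered over its length to 21.5%, 18.9%, 33.4% and 38.9% in list order. At its TSS windows the means were 6.89%, 10.1%, 25.9% and 32.3%, the last of which was the highest xxChIP H1.5 mean of any array. Peaks overlapped 4, 12, 14 and 18 of its TSS windows. Another array on chromosome 1, OR10T2 to OR6N2 with 13 genes, was also higher in both xxChIP lists than in both xChIP lists, at 9.97%, 3.28%, 24.4% and 31.8%. Without the array of 43 genes, the members still exceeded GC-similar genes in xxChIP by 9.42 percentage points with H1.2 and 13.0 with H1.5. That comparison was not repeated against 2-kb tiles.

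**Figure D5:**
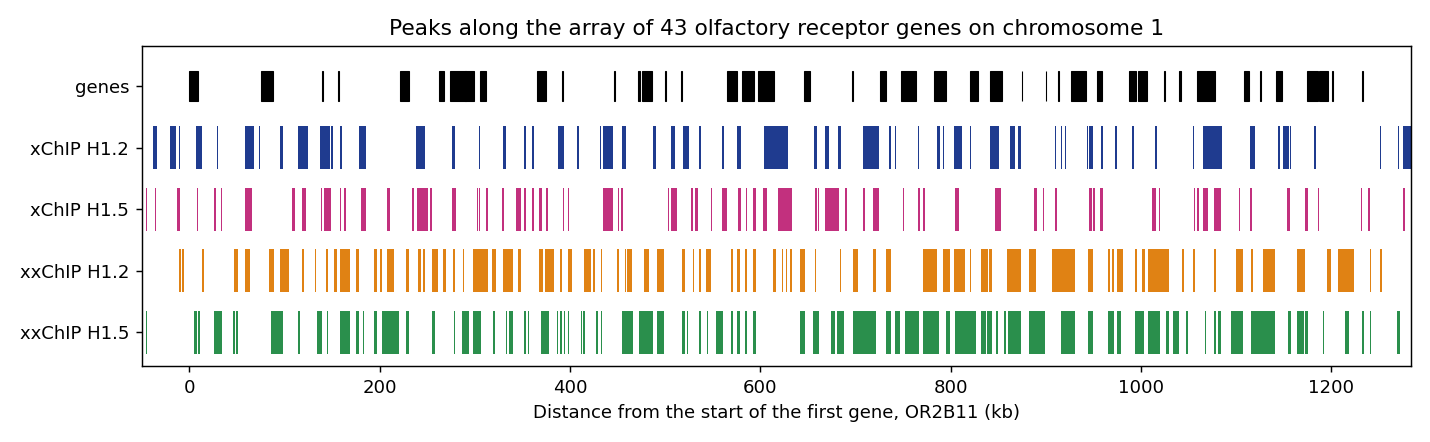
Positions of genes (black) and of the peaks of each list (coloured) along the 43-gene array on chromosome 1, by distance in kb from the start of its first gene, OR2B11 (x axis). Wide xxChIP blocks stand out in the right-hand part, and over the whole array xxChIP H1.5 covers 38.9% and xChIP H1.5 covers 18.9%.

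Other arrays departed from this order. On chromosome 12, the 15 genes from OR9K2 to OR10P1 had TSS means of 27.0%, 33.5%, 6.31% and 17.5%, so that both xChIP lists stood above both xxChIP lists. On chromosome 14, the 20 genes from OR11H2 to OR6S1 had 16.7%, 31.7%, 12.1% and 20.5%, and the 5 from OR5AU1 to OR4E1 had the highest xChIP H1.5 mean of any array, 37.2%, with no xChIP H1.2 peak at a TSS window.

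Arrays also differed in which isotype xxChIP marked. The 14 genes from OR2W1 to OR2H2 on chromosome 6 stood at 24.2% in xxChIP H1.2 and 2.10% in xxChIP H1.5, and the 14 from OR1J1 to OR1K1 on chromosome 9 at 5.86% and 24.4%. On chromosome 19, the 5 genes from OR10H2 to OR10H4 reached 77.7% in xxChIP H1.2 and 31.9% in xxChIP H1.5. There the windows of OR10H2, OR10H3 and OR10H4 were each covered to 100% by xxChIP H1.2, that of OR10H1 to 88.3%, and that of OR10H5 held none. The 11 genes from OR1D5 to OR1E2 on chromosome 17 were low in all lists, at 3.34%, 9.09%, 7.29% and 2.54%.

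Of the remaining arrays, those led by OR5AC1, OR9A2 and OR13F1 also had both xxChIP means above both xChIP means. OR5AC1 to OR5K2 on chromosome 3 (12 genes) had 15.7% and 16.2% in the xxChIP lists and 9.20% and 1.88% in the xChIP lists. OR9A2 to OR2A1 on chromosome 7 (14 genes) had 26.2% and 17.8% in the xxChIP lists and 14.0% and 13.3% in the xChIP lists. OR13F1 to OR13D1 on chromosome 9 (8 genes) had 28.6% and 23.0% by xxChIP, and 0% and 12.0% by xChIP. OR2Z1 to OR7E24 on chromosome 19 (8 genes) had the highest xChIP H1.2 mean, 36.6%, and 27.5% and 29.9% in the xxChIP lists. OR7C1 to OR1I1 on the same chromosome (6 genes) lay between 16.4% and 22.9% in every list.

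The 10 members that lie alone were overlapped at the TSS window in 3, 2, 3 and 3 cases in the 4 lists. OR11H12 was covered to 100% by xxChIP H1.2, OR2A4 to 100% by xxChIP H1.5, OR6J1 to 100% by xChIP H1.2 and OR11H1 to 75.9% by xChIP H1.5. OR2AE1 was covered to 62.4% by xChIP H1.2, OR2K2 to 11.7% and 7.85% in the xChIP lists and to 17.4% in the xxChIP H1.5 list, and OR4F17 to 2.50% and 13.0% in the xxChIP lists. OR9A4, OR13A1 and OR4F21 had bare TSS windows, and OR4F21 was the only 1 of the 10 with a bare gene body and TSS window in every list. Of these, OR11H12, OR2A4, OR11H1, OR4F17 and OR4F21 hold mostly repeated sequence and their values are uncertain.

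Receptors are numbered by families of related protein sequence, and the families were not alike in coverage, though relatives often share an array. OR14, with 6 members, was overlapped at the TSS by xxChIP H1.5 in 5, among them OR14A2 (92.9% of the window), OR14A16 (100%), OR14K1 (100%) and OR14I1 (100%). The fifth, OR14C36, was covered to 0.950%, and all 5 lie in the 43-gene array, whereas OR14J1 on chromosome 6 held xChIP H1.2 alone, at 91.1%. OR7, with 11 members in arrays of chromosome 19, was overlapped in 6, 4, 5 and 7 genes. OR4, with 29 members, was overlapped in 4, 11, 5 and 9, and OR2, the largest family with 63, in 12, 16, 20 and 20.

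The peaks at the TSS windows of members were long. There were 45, 57, 62 and 72 such peaks in list order, with median lengths of 4911, 2640, 5614 and 5517 bp. Over all peaks of the autosomes the medians were 2339, 2101, 2168 and 2032 bp, although longer peaks are also more likely to meet any window. Peaks of at least 20 kb made up 2, 4, 9 and 9 of them, or 4.44%, 7.02%, 14.5% and 12.5%, against 4.17%, 1.04%, 2.11% and 1.23% of all peaks, so the xChIP H1.2 share was close to that of its list. The longest of xxChIP H1.2, 40236 bp, lay at OR11H12 and the longest of xxChIP H1.5, 41047 bp, at OR4N4. Of the members overlapped, between 4 and 8 per list shared a peak with another member.

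Near-identical copies limit what can be said of single members. A read of 50 bases could be placed uniquely over the whole TSS window in 73 members, over less than 90% of it in 56 and over less than 50% in 24. Those 24 were OR4F5, OR4F29, OR4F16, OR4F3, OR4F21, OR4F4 and OR4F17 of the OR4F group, OR2T7, OR2T3, OR2T5, OR2T29, OR2T34, OR2T11, OR2T27 and OR2G6 of the chromosome 1 array, OR2A4, OR2A42, OR2A7 and OR2A1, OR11H12, OR11H2 and OR11H1, OR4N2 and OR1D5. The copies printed above show the difficulty: 46.6% of the TSS window of OR2T3 and 46.5% of that of OR2T34 held unique words, and xxChIP H1.2 covered 100% of OR2T3 and none of OR2T34, while xxChIP H1.5 covered 100% of OR2T34 and none of OR2T3. Whether the peaks belong to the copy they were placed on cannot be told apart from these lists. Among the 171 members with at least 90% unique windows, 35, 41, 45 and 51 were overlapped and the means were 13.5%, 11.8%, 17.2% and 19.6%, in the same order of lists as over all members. In the other 56 members 11, 15, 21 and 23 were overlapped (19.6%, 26.8%, 37.5% and 41.1%, against 20.5%, 24.0%, 26.3% and 29.8%) and the means were 11.4%, 14.7%, 23.8% and 28.4%, so xxChIP coverage was higher and the xChIP isotypes stood in the other order. Among these 56, the 24 under 50% were overlapped in 8.33%, 33.3%, 25% and 25%, with means of 7.12%, 13.3%, 15.4% and 18.3%. In those 24 members xxChIP coverage was thus not above that of the 171.

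Local GC did not separate the lists evenly. In the 64 members under 37% GC, xxChIP H1.2 covered 18.9% of the TSS window, against 12.8% in GC-similar genes, and the H1.5 list covered 20.4% against 9.32%. In the 71 members at 40% or more the same pairs were 17.4% and 4.35%, and 17.8% and 4.03%. Members at both ends of the GC range were thus near the same level, while other genes were lower at the upper end. In the members between, the pairs were 19.8% and 6.65%, and 25.7% and 5.81%. By xChIP of H1.2 the members were covered to 10.1% under 37% and to 19.1% from 40%, against 8.86% and 34.7% of the windows of GC-similar genes. Against GC-similar genes, the shortfall in xChIP H1.2 was thus seen in the members from 37% GC upward, with 10.2% against 15.5% in the 92 members between. By xChIP of H1.5 the members under 37% were covered to 18.0%, against 8.64% in GC-similar genes. The same pair was 8.27% and 9.25% between 37% and 40%, and 13.1% and 11.1% from 40%. Tiles of 2 kb gave another picture. Under 37% GC they were covered to 14.3%, 16.0%, 28.2% and 23.3% in list order. The members there stood above them in xChIP H1.5 only. Between 37% and 40% the tiles stood at 19.1%, 16.6%, 23.6% and 19.7%, with the members higher in xxChIP H1.5 only. From 40% they stood at 32.9%, 16.8%, 16.9% and 14.7%, with the members higher in both xxChIP lists only.

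Sequence words known from receptor gene promoters were searched 250 bp upstream to 50 bp downstream of the TSS. In 84 members this TSS was the first coding base. TAATTA, the core of sites bound by homeodomain factors such as LHX2 and EMX2, was found in 50 members (22.0%), against 5.75% of GC-similar genes, 10.8% of genes with similar GC in the TSS window and 3.46% of all other genes. The site of EBF factors, TCCC and GGGA with any 2 bases between them, was found in 2 members (0.881%). It was found in 0.925% of GC-similar genes, 1.06% of genes with similar GC in the TSS window and 1.34% of all other genes. Both words read the same on either strand, and their letters cannot overlap each other. A match to so short a word is a description of the letters and not of binding.

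The olfactory receptor genes on chromosome 11 were covered less than the members in all lists. Their TSS windows had means of 4.79%, 6.94%, 11.3% and 8.76%, and 23, 23, 35 and 26 of the 171 were overlapped. Both sets stood higher in the xxChIP lists than in the xChIP list of the same isotype. Only the members had a higher mean in xxChIP H1.5 than in xxChIP H1.2, and this difference between the sets was not tested.

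Within the arrays, 82 olfactory receptor pseudogenes, disabled copies that make no receptor, offered a comparison at the same location. Their starts were overlapped in 20, 22, 23 and 19 cases, or 24.4%, 26.8%, 28.0% and 23.2%, against 36, 50, 60 and 63 of the 188 genes in those arrays (19.1%, 26.6%, 31.9% and 33.5%). Mean TSS coverage was 15.2%, 19.5%, 20.8% and 16.2% for the pseudogenes and 12.1%, 14.3%, 20.5% and 22.1% for the genes. By this measure the pseudogenes stood above the genes in both xChIP lists, both were close in xxChIP H1.2, and the genes stood higher in xxChIP H1.5. The annotated starts may differ in kind, as 128 members start at least 100 bp upstream of the first coding base. At that base, coverage over all members was 14.6%, 10.4%, 10.6% and 14.6% in list order, though these are not means over a TSS window. The part of start placement in this comparison was not tested.

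The other genes of the pathway differed from the receptors in coverage, but their surroundings were also richer in GC. Their median local GC was 45.8%, against 38.3% for the members, and the part of base composition in this contrast was not tested. The list of 20 holds the signalling proteins GNAL, GNG13, ADCY3, CNGA4, CNGB1 and ANO2, the marker OMP, the receptor transport proteins RTP1, RTP2 and REEP1, the accessory proteins STOML3 and RIC8B, and the genes tied to receptor choice LHX2, LDB1, EBF1, EMX2, KDM1A, LBR, ATF5 and DDIT3. Their TSS windows were overlapped in 10, 2, 3 and 2 of the 20 genes in list order, or 50%, 10%, 15% and 10%, so that the order of the lists was nearer to that over all genes (49.7%, 22.2%, 8.74% and 7.99%) than to that of the members. OMP, DDIT3, LDB1 and RIC8B were covered to 100% by xChIP H1.2 alone. EBF1, also a B-cell transcription factor, was covered to 100% in the xChIP H1.5 and xxChIP H1.2 lists and to 69.5% in the xxChIP H1.5 list, and LBR, which tethers heterochromatin to the nuclear envelope, to 17.1% and 70.5% by xChIP of H1.2 and H1.5. The windows of RTP1, RTP2, ADCY3, KDM1A, LHX2, ATF5, CNGA4 and ANO2 held no peak of any list.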

How the data were processed

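Linker histone ChIP was measured in 12 immunoprecipitated samples of HL-60/S4 cells, with groups taken from the labelled protocol and antibody. The authors sequenced paired ends, aligned them with Bowtie2 to hg19, discarded reads without a unique place, ran MUSIC per replicate and merged the peaks of 3 replicates. The lists used here, as the authors deposited them, give start and end positions of merged peaks without score or read number, so the precision that depth gives is unknown. How many replicates hold a peak is not recorded, and merging offset peaks can lengthen them.

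Genes came from GENCODE 44 lifted to GRCh37, the sequence of hg19. For each TSS window, gene body and coding span, the percent of bases covered by peaks was computed with Python 3.11.15, numpy 2.4.6 and pandas 2.3.3, and a gene was called from 1 shared bp. Comparison genes were weighted to the members' distribution of local GC (bins of 1 percentage point). Tiles of 2 kb (for coding spans, 1 kb, matched on own and local GC) were weighted likewise. Unique sequence was the share of 50-base words found once in hg19. The coverage and weighting code was tested on simulated data.

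Named members were 5 per list with the most covered gene (ties broken by TSS coverage, then genome order), those at the ends of arrays of at least 5 genes or lying alone, those under 50% unique, and those overlapped in all 4 lists (at most 10). Members printed as sequence, members of the OR7, OR10H and OR14 groups, and receptors with known odorants were added after their values were seen. The members and gene lists were chosen with earlier results of these data known. Alternatives covered window size, peak length, GC scale, comparison genes, clusters and uniqueness.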

Additional observations from a re-analysis of the deposited data

How the results depend on the processing

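Of 118 recomputed values, 94 kept their direction and stayed within the margin of the 95% counting interval of the members' value (for clusters, within 1.5 times), 17 moved further and 7 reversed; the causes were not tested. Overlap of members' TSS windows (H1.2 then H1.5 by xChIP, then H1.2 and H1.5 by xxChIP) was 36.6%, 41.0%, 51.1% and 55.1% with 2500 bp on either side, and 12.3%, 11.5%, 17.2% and 19.8% when at least 50% of the window had to be covered. With 500 bp it was 18.9% for xChIP H1.5 and 22.9% for xxChIP H1.2. With peaks of at least 2000 bp it was 16.3% for xChIP H1.5 and 26.4% for xxChIP H1.5. The TSS difference for xChIP H1.2 was -1.54 with GC in 10 kb and -16.4 in 1 Mb, and its gene body difference was -14.6 in 1 Mb. The TSS difference for xChIP H1.5 reversed to -0.93 with each cluster weighing the same, to -3.99 against 2-kb tiles and to -0.72 with the GC of the window itself. Against tiles, that for xxChIP H1.2 reversed to -4.01 and that for xxChIP H1.5 was 2.56. The gene body difference for xxChIP H1.2 reversed to 0.23 with peaks of at least 2000 bp and to 2.38 with GC in 1 Mb, and was -8.35 over the coding span, where that for xxChIP H1.5 reversed to -0.051. Within that margin, 9 differences still changed by over 1.5 times. With GC in 10 kb they were 6.52 (TSS, xxChIP H1.2), -3.22 and -2.84 (gene body, H1.2 by xChIP and xxChIP), and in 1 Mb 1.78 (TSS, xChIP H1.5). The gene body difference for xChIP H1.5 was -0.63 without the largest cluster, -0.73 with each cluster weighing the same and -4.36 over the coding span. That for xxChIP H1.2 was -0.084 against genes no longer than the longest member, and its TSS difference was 7.36 with the GC of the window. A gap of 100 kb gave 52 clusters and 1 Mb gave 30. The comparisons with tiles and by GC of the window, the coding spans and the restriction to members with 100 bp upstream were chosen after seeing the data. No paired analysis was possible because each list merges its replicates, and leaving out a replicate could not be run for the same reason.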

Other observations

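Other chemosensory receptor genes on the autosomes were looked at beside the olfactory receptors, as lists without a test. The 27 taste receptor genes (TAS1R and TAS2R), which encode the receptors for sweet, savoury and bitter tastes, had TSS windows overlapped by xChIP in 4 genes for H1.2 and 3 for H1.5, and by xxChIP in 6 for H1.2 and 7 for H1.5. Their mean coverage was 13.8%, 2.05%, 16.4% and 14.3%, so that xChIP H1.5 was the lowest list. Their median local GC was 36.8%.

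The 6 trace amine receptor genes (TAAR), olfactory receptors for amines that lie in 1 small array, were overlapped in 2, 3, 2 and 1 genes in the same order, with means of 18.5%, 43.0%, 18.7% and 5.61%. The 4 vomeronasal receptor genes (VN1R) were overlapped in 2 genes by each list other than xChIP H1.5, which overlapped none of the 4. Both lists are too small to be set against the olfactory receptors.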
